A study of Mus musculus with 6 samples.

Results

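The genes described here carry the insulin signal inside a muscle fiber: the insulin receptor *Insr*, its substrates *Irs1* and *Irs2*, the phosphoinositide 3-kinase (PI3K) subunits *Pik3r1* and *Pik3ca*, the kinases *Akt1* and *Akt2*, the Rab GTPase-activating proteins *Tbc1d1* and *Tbc1d4*, and the kinase *Mtor*. These 10 genes were taken by name from a table of 20632 genes, and all 10 passed the filter on low counts that left 12116 genes for testing. Whole hind limb muscles gave 1 library per mouse, for 3 Baf155 WT mice and 3 Baf155 ΔMF mice. All were unexercised males aged 3 months, labelled C57BL/6 (C57BL/6J background in the study's methods). Baf155 ΔMF mice carry floxed *Baf155* and *MCK*-Cre, a transgene in which the muscle creatine kinase promoter drives Cre in skeletal and cardiac muscle fibers, and the other cells of the muscle keep *Baf155*. The controls, which the labels call wild type, are *Baf155* f/f in the study's naming, so both groups carry the floxed alleles. BAF155, encoded by *Smarcc1*, is a core subunit of the SWI/SNF chromatin remodeling complex, and the comparison asks which transcripts of resting muscle differ when fibers lack it.

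Insulin binding activates the receptor's tyrosine kinase, which phosphorylates the substrate proteins IRS1 and IRS2. These recruit PI3K, and the lipid it makes brings AKT to the membrane, where AKT is phosphorylated. AKT2 then phosphorylates TBC1D4 and TBC1D1, releasing the brake on Rab proteins so that vesicles carrying the glucose transporter GLUT4 reach the cell surface, while mTOR couples the pathway to protein synthesis. Most of this control lies in phosphorylation, which RNA levels do not show.

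*Smarcc1* was at 23.4, 19.5 and 17.0 CPM (counts scaled to library size, with TMM factors) in Baf155 WT mice and at 7.05, 6.54 and 7.72 CPM in Baf155 ΔMF mice, a log2 difference of -1.49 ± 0.15 (SE, edgeR adjusted p = 0.00907). The 12 skeletal muscle fiber markers together made up 198723 to 247425 CPM in the 6 libraries. Sample titles begin with MS13 (1 Baf155 WT and 2 Baf155 ΔMF mice), MS15 (2 Baf155 WT mice) or MS14 (1 Baf155 ΔMF mouse), and the labels do not say what the prefix stands for. On the first principal component (43.3% of the variance), scores were 25.0 and 22.5 for the MS15 mice, whereas the MS13 Baf155 WT mouse, at -13.4, lay near the MS13 Baf155 ΔMF mice at -17.1 and -15.4, with the MS14 mouse at -1.56. Outside MS13, prefix and genotype cannot be told apart, so the log2 difference among the MS13 mice alone is given for each of the 10 genes, without a test.

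Sequences upstream of 4 of the genes are shown because the study concerns STAT3 and because the *Irs* genes are close relatives. RefSeq start sites on GRCm38.p6 gave windows of 250 bases before the start for 9 of the 10 genes (all but *Insr*), 15 windows in all. Both strands were searched for TTCNNNGAA, the palindrome that STAT factors bind, for ACGTG, the core of the hypoxia response element, and for GTAAACA, a forkhead site. TTCNNNGAA was found in 2 of the 15 windows, for *Akt2* and *Mtor*, and in 7.02% of all 32851 windows of this length. ACGTG was found in 4 of the 15, for *Akt2*, *Pik3ca*, *Irs1* and *Irs2*, against 16.6% of all windows, and GTAAACA in 1 of the 15, for *Akt1*, against 3.17%. Of the windows printed, those of *Akt2* (chr7:27591302-27591551, + strand) and *Mtor* (chr4:148448332-148448581, + strand) hold a STAT match, and those of *Irs1* (chr1:82291440-82291689, - strand) and *Irs2* (chr8:11008930-11009179, - strand) hold CACGTG, which reads as ACGTG on each strand. Capitals mark the matches, and the printed *Akt2* window also holds an ACGTG. The other *Akt2* windows, which begin at chr7 positions 27596580, 27605547 and 27607086, hold no match and are not printed.
Akt2: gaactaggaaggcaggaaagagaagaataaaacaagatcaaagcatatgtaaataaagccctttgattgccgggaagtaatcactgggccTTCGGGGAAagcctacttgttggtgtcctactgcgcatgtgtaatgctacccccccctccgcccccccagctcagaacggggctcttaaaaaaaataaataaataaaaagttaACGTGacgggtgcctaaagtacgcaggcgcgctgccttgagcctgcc
Mtor: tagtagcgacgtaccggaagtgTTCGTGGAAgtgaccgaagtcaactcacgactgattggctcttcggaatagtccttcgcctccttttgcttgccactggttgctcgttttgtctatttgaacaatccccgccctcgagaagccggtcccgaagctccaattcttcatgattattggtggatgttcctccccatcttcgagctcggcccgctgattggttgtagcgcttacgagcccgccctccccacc
Irs1: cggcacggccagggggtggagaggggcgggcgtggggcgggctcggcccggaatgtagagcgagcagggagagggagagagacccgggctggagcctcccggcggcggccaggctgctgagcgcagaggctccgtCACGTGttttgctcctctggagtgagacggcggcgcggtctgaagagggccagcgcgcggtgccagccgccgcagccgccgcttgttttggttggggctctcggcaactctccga
Irs2: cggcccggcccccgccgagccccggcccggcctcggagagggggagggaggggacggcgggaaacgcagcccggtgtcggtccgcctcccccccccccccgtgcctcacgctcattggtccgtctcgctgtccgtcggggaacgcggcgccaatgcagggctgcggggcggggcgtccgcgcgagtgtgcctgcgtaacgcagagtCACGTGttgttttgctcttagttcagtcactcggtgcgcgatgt
These matches are a description of letters, and binding was not measured.

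Of the 10 genes, 0 passed an adjusted p of 0.05 in edgeR's quasi-likelihood test, where 3 of the 12116 genes tested did (0.0248%). The unadjusted p was under 0.05 for 0 of the 10 as well, beside 7.95% of all genes tested. DESeq2 and limma-voom also called 0 of the 10 at an adjusted p of 0.05, and *Insr* alone had an unadjusted p under 0.05 in DESeq2, beside 4.99% of all genes tested. The median log2 difference of the 10 genes, Baf155 ΔMF over Baf155 WT, was 0.07 on TMM-scaled counts, beside -0.00095 for all genes tested. It was below 0 for 3 of the 10 genes and for 50.2% of all genes. Every one of the 10 intervals (95%) included 0, and 9 of them lay between 0.7-fold and 1.4-fold. The interval of *Insr* reached 1.55-fold, and the lowest bound was 0.702-fold, for *Irs2*. Each gene had between 216 and 3082 counts per library. In whole muscle, a change in the number of cells of a type cannot be told apart from a change in RNA per cell.

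**Figure D1:**
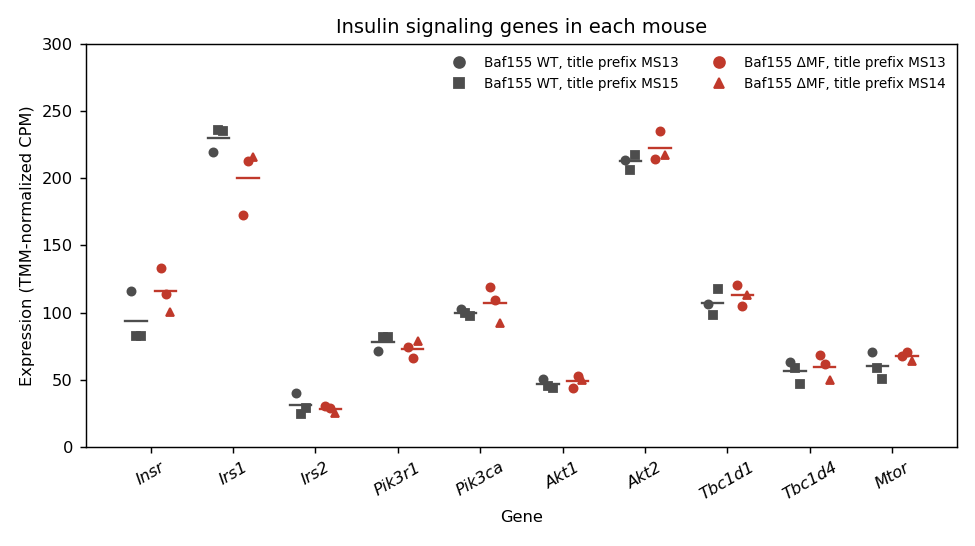
Expression of the 10 genes (TMM-normalized CPM, vertical axis) in each mouse. Points are mice, with shape by title prefix and color by genotype, and bars are the means of 3 mice. Only for *Irs1* do the genotypes not overlap, with Baf155 WT mice at 219 to 236 CPM and Baf155 ΔMF mice at 172 to 216 CPM.

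*Insr* encodes the insulin receptor (GRCm38, chr8:3122061-3279617, - strand). Its transcript was at 116, 82.9 and 82.3 CPM in Baf155 WT mice MS13-3, MS15-2 and MS15-3, and at 133, 114 and 101 CPM in Baf155 ΔMF mice MS13-1, MS13-2 and MS14-2. This order of mice holds for all values below. The MS15 mice were below all Baf155 ΔMF mice, and the MS13 Baf155 WT mouse lay within the Baf155 ΔMF range. Means were 93.7 ± 19.4 and 115.8 ± 16.4 CPM (SD, n = 3 each), a log2 difference of 0.31 ± 0.15 (SE) with an interval of -0.016 to 0.63 (edgeR adjusted p = 0.622). Among the MS13 mice it was 0.09. Without the MS13 Baf155 WT mouse the log2 difference of *Insr* was 0.49 (edgeR adjusted p = 0.0146), in a fit where 955 of 12288 genes (7.77%) passed. *Insr* was the only one of the 10 genes called there, and without both MS15 mice, which leaves 1 Baf155 WT mouse, its log2 difference was -0.0049.

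Other cells of the muscle also express *Insr*, and of 10 summed marker lists 4 separated the MS15 mice, in which *Insr* was low, from the other 4 mice. The 8 endothelial markers summed to 377, 276 and 289 CPM in Baf155 WT mice and to 374, 387 and 369 CPM in Baf155 ΔMF mice, with 8 of 8 log2 differences above 0 and 2 at an unadjusted p under 0.05. Among the MS13 mice alone they were mixed. *Cdh5*, *Tie1*, *Emcn*, *Vwf* and *Flt1* were below 0 there, from -0.26 for *Vwf* to -0.014 for *Cdh5*, and the rest above 0. The 8 macrophage markers summed to 89.8, 252 and 212 CPM and to 84.6, 82.2 and 129.9 CPM, with 8 of 8 below 0 at an unadjusted p under 0.05. Among the MS13 mice *Ptprc* (0.19) and *C1qa* (0.016) were above 0 and the other macrophage markers below. Of all 12116 genes tested, 6033 were above 0, and 963 had an edgeR unadjusted p under 0.05, 557 of them below 0. The 12 skeletal muscle fiber markers summed to 209284 and 198723 CPM in the MS15 mice and to 215780 to 247425 CPM in the other mice. Of their log2 differences, 6 of 12 were above 0 and 2 were at an unadjusted p under 0.05. Single fiber markers went both ways. *Ttn*, the longest of them at 116825 exon bases, was at 47541 and 37561 CPM in the MS15 mice and at 62959 to 85258 CPM in the others. Without *Ttn*, the summed fiber markers did not separate the MS15 mice from the others. *Neb*, *Myh1*, *Myh2* and *Mb* were also lowest in the MS15 mice, whereas *Acta1*, *Ckm*, *Tnnt3* and *Tnni2* were highest there. *Acta1* was at 30787 and 30583 CPM in the MS15 mice and at 24426 to 28059 CPM in the others. The 5 smooth muscle and pericyte markers summed to 607 and 651 CPM in the MS15 mice and to 744 to 877 CPM in the others, with 4 of 5 above 0 and 1 at an unadjusted p under 0.05. None of the markers in these 4 lists was at or under 3 counts in all libraries, and none passed an adjusted p of 0.05. Their part in the *Insr* values was not tested. The insulin-like growth factor 1 receptor gene *Igf1r*, the nearest relative of *Insr*, was at 31.1, 23.7 and 25.1 CPM and at 32.1, 30.1 and 28.7 CPM, with the MS15 mice again the lowest. *Insr* over *Igf1r* was 4.01 to 5.06 per exon length across the mice, and its log2 ratio differed by 0.12 between genotypes (two-sided exact permutation p = 0.2).

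*Irs1* encodes the receptor substrate that is well known for its part in muscle (chr1:82233101-82291416, - strand). It was at 219, 236 and 235 CPM in Baf155 WT mice and at 172, 213 and 216 CPM in Baf155 ΔMF mice. All Baf155 ΔMF mice were below all Baf155 WT mice, with the nearest mice at 219 and 216 CPM, and it was the only 1 of the 10 genes without overlap, beside 10.8% of all genes tested. The log2 difference was -0.20 ± 0.11 (SE), with an interval of -0.43 to 0.031 (edgeR adjusted p = 0.627). Among the MS13 mice it was -0.19. Without MS13-1, the lowest mouse at 172 CPM and also part of the MS13 comparison, the log2 difference was -0.10. With upper-quartile scaling or library size alone the genotypes overlapped. In the annotation 2822 exon bases of *Irs1* are shared with *Gm9747* on the opposite strand, and whether reads were counted by strand is not stated.

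*Irs2*, the other substrate gene (chr8:10984681-11008458, - strand), was at 40.4, 24.6 and 28.8 CPM in Baf155 WT mice and at 30.4, 28.9 and 25.3 CPM in Baf155 ΔMF mice. The MS13 Baf155 WT mouse was the highest of the 6 and the MS15 mice were within or below the Baf155 ΔMF range. The log2 difference was -0.14 ± 0.17 (SE), with an interval of -0.51 to 0.22 (edgeR adjusted p = 0.814), and among the MS13 mice it was -0.45. Without both MS15 mice it was -0.52 (edgeR adjusted p = 0.615, with the 1 remaining Baf155 WT mouse assumed to vary like the Baf155 ΔMF mice), and without the MS13 Baf155 WT mouse it was 0.084. Over the 6 mice the transcript of *Irs2* had the widest spread of the 10, 1.64-fold from lowest to highest, followed by *Insr* at 1.62-fold. The log2 ratio of *Irs2* over *Irs1* differed by 0.08 between genotypes (two-sided exact permutation p = 0.8), and 162 exon bases of *Irs2* overlap the antisense gene *9530052E02Rik*.

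The PI3K regulatory subunit p85α is encoded by *Pik3r1* (chr13:101680563-101768217, - strand), which was at 71.5, 81.6 and 81.7 CPM in Baf155 WT mice and at 74.5, 66.1 and 78.9 CPM in Baf155 ΔMF mice. The catalytic subunit p110α is encoded by *Pik3ca* (chr3:32397671-32468486, + strand), which was at 103, 100.1 and 97.2 CPM and at 119, 109 and 92.1 CPM. Genotypes overlapped for both genes. The log2 differences were -0.10 ± 0.099 for *Pik3r1* and 0.10 ± 0.10 for *Pik3ca* (SE, edgeR adjusted p = 0.782 and 0.795), and among the MS13 mice they were -0.024 and 0.15. The log2 ratio of *Pik3r1* over *Pik3ca* was -0.53, -0.30 and -0.25 in Baf155 WT mice and -0.68, -0.72 and -0.22 in Baf155 ΔMF mice, and the genotype means differed by -0.18 (two-sided exact permutation p = 0.4).

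*Akt2*, the AKT gene that mediates insulin-stimulated glucose uptake (chr7:27591552-27640826, + strand), was at 214, 206 and 218 CPM in Baf155 WT mice and at 215, 235 and 218 CPM in Baf155 ΔMF mice. It had the narrowest range of the 10 genes over the 6 mice, 1.14-fold. *Akt1*, the broadly expressed form (chr12:112653821-112674884, - strand), was at 50.6, 45.1 and 44.2 CPM and at 44.1, 53.2 and 49.9 CPM. The genotypes overlapped for both genes, and both log2 differences were 0.07, with SEs of 0.087 for *Akt2* and 0.10 for *Akt1* (edgeR adjusted p = 0.836 and 0.841). Among the MS13 mice the differences were 0.07 for *Akt2* and -0.058 for *Akt1*. Per exon length, *Akt2* was at 2.43 to 2.83 times the level of *Akt1* in each of the 6 mice, and the log2 ratio differed by -0.0079 between genotypes (two-sided exact permutation p = 0.9).

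*Tbc1d1* (chr5:64156305-64351486, + strand) was at 106, 98.2 and 118 CPM in Baf155 WT mice and at 121, 105 and 113 CPM in Baf155 ΔMF mice. *Tbc1d4*, also called AS160 (chr14:101442360-101609191, - strand), was at 63.3, 59.1 and 47.2 CPM and at 68.1, 61.6 and 50.1 CPM. One mouse of each genotype, MS15-3 and MS14-2, was lowest for *Tbc1d4*, and genotypes overlapped for both genes. The log2 differences were 0.07 ± 0.098 for *Tbc1d1* and 0.09 ± 0.14 for *Tbc1d4* (SE, edgeR adjusted p = 0.836 and 0.865), and among the MS13 mice they were 0.08 and 0.036. *Tbc1d4* was at 0.387 to 0.581 times the level of *Tbc1d1* per exon length, with a log2 ratio that differed by 0.0081 between genotypes (two-sided exact permutation p = 1).

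*Mtor*, the kinase of the mTOR complexes (chr4:148448611-148557683, + strand), was at 70.6, 58.8 and 50.6 CPM in Baf155 WT mice and at 67.8, 70.9 and 64.2 CPM in Baf155 ΔMF mice. Its MS15 mice were below all Baf155 ΔMF mice and its MS13 Baf155 WT mouse was within their range. The log2 difference was 0.17 ± 0.12 (SE, edgeR adjusted p = 0.687), and among the MS13 mice it was -0.026. Without the MS13 Baf155 WT mouse it was 0.31 (edgeR adjusted p = 0.0715). For 4 of the 10 genes (*Insr*, *Irs1*, *Pik3r1* and *Mtor*) both MS15 mice lay beyond all Baf155 ΔMF mice on 1 side, beside 39.2% of all genes tested. The MS13 Baf155 WT mouse lay inside the Baf155 ΔMF range for 7 of the 10 genes, beside 56.9% of all genes tested.

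**Figure D2:**
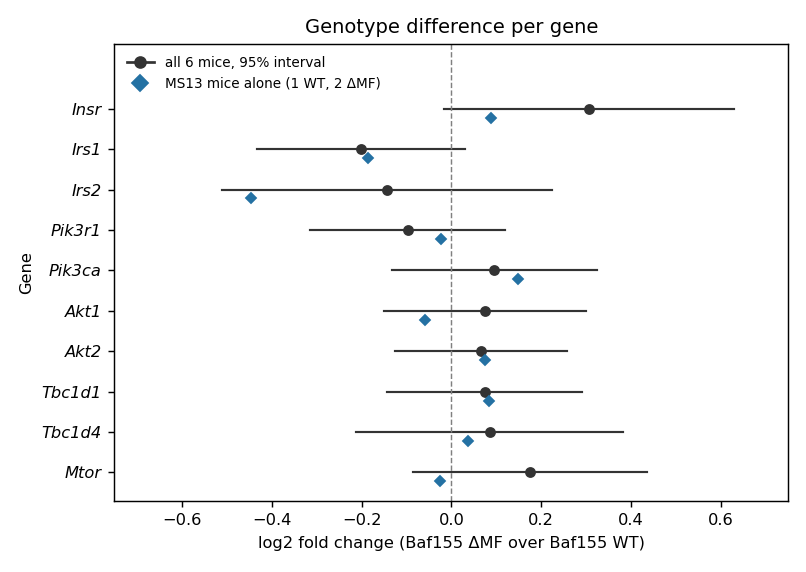
Log2 difference of each gene, Baf155 ΔMF over Baf155 WT (horizontal axis), with its 95% interval from edgeR over all 6 mice (black) and the value among the 3 MS13 mice (blue). All 10 intervals include 0, and *Insr* is at 0.31 over all mice and at 0.09 among the MS13 mice.

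**Figure D3:**
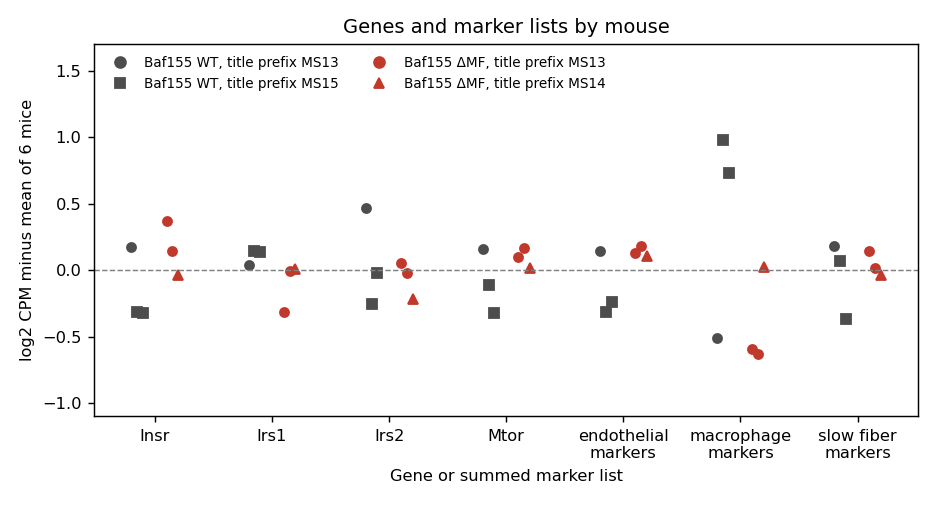
Log2 CPM of 4 genes and log2 summed CPM of 3 marker lists in each mouse, minus the mean of the 6 mice (vertical axis), with shape by title prefix and color by genotype. For *Insr* and the endothelial markers both MS15 mice are below the other 4 mice, and for the macrophage markers, at 252 and 212 CPM, they are above them.

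Per kilobase of exon, the levels over the 6 mice ran from *Akt2* at 30.5 ± 1.34 CPM (SD, n = 6) through *Irs1* at 23.5 ± 2.53 and *Tbc1d1* at 14.9 ± 1.15 to *Akt1* at 11.7 ± 0.949 and *Pik3ca* at 11.4 ± 1.06. *Insr* at 7.62 ± 1.46, *Tbc1d4* at 7.59 ± 1.05, *Pik3r1* at 7.51 ± 0.612, *Mtor* at 6.31 ± 0.783 and *Irs2* at 4.70 ± 0.903 CPM followed. The 6 mice did not overlap between *Akt2* and *Irs1*, between *Irs1* and *Tbc1d1*, between *Tbc1d1* and *Akt1*, or between *Pik3ca* and *Insr*. All other neighbors in this order overlapped. In each pair of relatives 1 gene was the more abundant in all 6 mice, with *Irs2* at 0.151 to 0.267 times the level of *Irs1* per exon length. Over the 5 ratios tested, the p-values adjusted by the Benjamini-Hochberg method were all 1, and the smallest p that 3 against 3 mice allow is 0.10.

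Around these genes, 5 lists of the same pathway held 89 other genes, of which 85 were tested. No gene of these lists passed an adjusted p of 0.05 in edgeR, and 8 had an unadjusted p under 0.05, 5 with a log2 difference above 0 and 3 below, beside 963 of all 12116 genes tested, 406 above and 557 below. The smallest adjusted p in the lists was 0.601. Genotypes did not overlap for 15 of the 85 genes, 11 of them higher and 4 lower in Baf155 ΔMF mice, beside 1305 of all 12116 genes tested (10.8%).

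Among the receptor relatives and adaptors (15 of 17 tested, median log2 difference 0.015), 1 gene was above and 1 below 0 at an unadjusted p under 0.05. *Grb10*, an adaptor that inhibits the insulin receptor, was at 54.8, 61.1 and 48.2 CPM in Baf155 WT mice and at 46.0, 42.4 and 44.3 CPM in Baf155 ΔMF mice, without overlap (log2 difference -0.31 ± 0.10 SE, edgeR unadjusted p = 0.0132, adjusted p = 0.601). Among the MS13 mice its difference was also -0.31. *Sos1*, the exchange factor that leads from the adaptors to Ras, was at 41.1, 38.1 and 30.6 CPM and at 47.6, 46.3 and 41.7 CPM, with a log2 difference of 0.31 ± 0.12 over all mice and of 0.19 among the MS13 mice.

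The PI3K subunits and phosphoinositide phosphatases (12 of 12 tested) had a median log2 difference of 0.18, with 11 of 12 above 0, beside 6033 of the 12116 genes tested. Among the MS13 mice alone the list was mixed. *Pik3cb*, *Pik3c2a*, *Inppl1*, *Inpp5k*, *Inpp4a* and *Pik3ip1* were below 0 there, from -0.24 for *Pik3c2a* to -0.014 for *Pik3ip1*. The rest of the list was above 0 in these mice. *Pik3r3*, a regulatory subunit, was at 10.3, 8.26 and 8.48 CPM in Baf155 WT mice and at 10.4, 11.9 and 13.6 CPM in Baf155 ΔMF mice. *Pik3cd*, the catalytic subunit p110δ that is best known from leukocytes, was at 19.1, 17.8 and 13.7 CPM and at 22.2, 22.1 and 20.5 CPM. Neither gene overlapped between genotypes, and both had an unadjusted p under 0.05, with log2 differences of 0.41 ± 0.15 and 0.35 ± 0.13 (SE, edgeR adjusted p = 0.601 for each). For *Pik3r3* the nearest mice were at 10.30 and 10.36 CPM. Among the MS13 mice the log2 differences of *Pik3r3* and *Pik3cd* were 0.11 and 0.21. *Pik3r2*, at 19.8 to 22.4 CPM in the 6 mice, and *Pik3cb*, at 5.80 to 8.45 CPM, overlapped between genotypes.

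Among the AKT kinases, regulators and substrates (15 of 16 tested, median log2 difference 0.075), 0 genes had an unadjusted p under 0.05. *Foxo1*, a transcription factor that AKT keeps out of the nucleus, was at 22.6, 19.7 and 20.6 CPM in Baf155 WT mice and at 25.0, 23.9 and 23.5 CPM in Baf155 ΔMF mice, without overlap (log2 difference 0.20 ± 0.10 SE, edgeR adjusted p = 0.624). *Foxo6* was at 3.39 ± 0.10 and 4.80 ± 1.42 CPM (log2 difference 0.50 ± 0.24 SE, edgeR adjusted p = 0.622), and its genotypes overlapped.

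The GLUT4 vesicle list (21 of 21 tested, median log2 difference 0.011) had 2 genes above 0 and 0 below at an unadjusted p under 0.05. *Slc2a4*, the GLUT4 gene itself, was at 587, 582 and 576 CPM in Baf155 WT mice and at 558, 559 and 626 CPM in Baf155 ΔMF mice. The genotypes overlapped, and the log2 difference of *Slc2a4* was -0.0023, with an interval of -0.21 to 0.20 (edgeR adjusted p = 0.995). *Lnpep*, the aminopeptidase that travels in GLUT4 vesicles, was at 125, 93.6 and 87.4 CPM and at 140.1, 131 and 116 CPM, and *Vamp2*, a vesicle SNARE protein, was at 12.3, 10.3 and 8.92 CPM and at 12.3, 14.2 and 13.3 CPM. For both, the MS15 mice were the lowest and the genotypes overlapped. Their log2 differences were 0.34 each over all mice and 0.12 and 0.10 among the MS13 mice (edgeR adjusted p = 0.601 for *Lnpep* and 0.611 for *Vamp2*).

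In the list of mTOR complexes and effectors (22 of 23 tested, median log2 difference -0.052), 2 genes were below 0 and 0 above at an unadjusted p under 0.05. *Ddit4*, also called REDD1, an inhibitor of mTORC1, was at 6.90, 5.28 and 10.4 CPM in Baf155 WT mice and at 3.74, 5.40 and 3.04 CPM in Baf155 ΔMF mice, with overlap between 1 mouse of each genotype (log2 difference -0.88 ± 0.28 SE, edgeR unadjusted p = 0.00979, adjusted p = 0.601). *Ddit4l*, also called REDD2 and a relative of *Ddit4*, was at 413, 398 and 388 CPM and at 347, 360.3 and 298 CPM, without overlap (log2 difference -0.25 ± 0.10 SE, edgeR adjusted p = 0.601). Among the MS13 mice the differences of *Ddit4* and *Ddit4l* were -0.59 and -0.22. Other inhibitors of mTORC1 in the list, named here after their values were seen, had log2 differences on both sides of 0. Above 0 were *Sesn2* at 0.53 (0.982 to 2.81 CPM in the 6 mice), *Tsc1* at 0.15, *Tsc2* at 0.08 and *Deptor* at 0.052. Below 0 were *Tbc1d7* at -0.18, *Akt1s1* at -0.14, *Sesn1* at -0.11 and *Gatsl3* at -0.053. Each of these had an unadjusted p above 0.05 in edgeR. The complex subunits *Rptor* (37.1 and 38.1 CPM on average) and *Rictor* (65.3 and 58.7 CPM) and the inhibitor *Tsc2* (82.2 and 86.8 CPM) overlapped between genotypes.

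**Figure D4:**
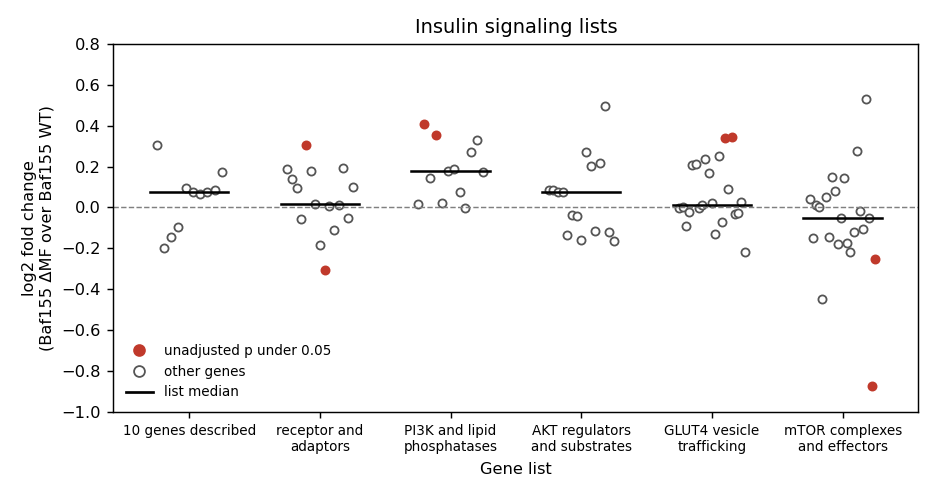
Log2 difference of each gene, Baf155 ΔMF over Baf155 WT (vertical axis), in the 10 genes described and the 5 pathway lists. Filled points have an unadjusted p under 0.05 in edgeR and bars are list medians, from -0.052 for the mTOR list to 0.18 for the PI3K list. None of these genes passed an adjusted p of 0.05.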

How the data were processed

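Total RNA from whole hind limb muscles was sequenced by the authors with a strand-marking kit, 1 library per mouse. The submitters' processing notes name CASAVA 1.8.2, cutadapt 1.10, Bowtie2 2.2.7, TopHat2 2.1.1, RSEM 1.2.30, limma and the build GRCm38 (mm10). The authors deposited expected counts per gene, without normalization. Totals were 8426022 to 12469335 per mouse, and 3 counts corresponded to 0.241 to 0.356 CPM. Intervals are for the mean difference between genotypes, estimated from these 3 mice per genotype, and do not describe the spread between mice. Their error also draws on the dispersion of the other genes tested.

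The expected counts were rounded (14.1% of genes had a fractional estimate) and fitted with edgeR 4.0.16 under R 4.3.3. The default filter (minimum count 10, minimum total 15) kept 12116 genes, which were scaled by TMM (factors 0.958 to 1.05). The quasi-likelihood F test had genotype as its only term, and its p-values over the 12116 genes received the Benjamini-Hochberg adjustment. The test was checked on simulated data. SEs were derived from the F statistic. Ratios within a library were compared by two-sided exact permutation over 20 assignments, after adding 0.5 counts. Alternatives were voom in limma 3.58.1, DESeq2 1.42.0, other filters and scalings, a robust fit, the title prefix as covariate, removal of trends with gene length or GC content, and leaving out mice. Positions and exon lengths are from GENCODE M21, and promoter windows from RefSeq. The exon length of a gene merges the exons of all its annotated transcripts and may differ from that of the transcripts expressed. Levels, ratios and the order of genes per exon length depend on this choice.

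The genes and lists were chosen with earlier results of these data known. Named beside the 10 genes are the 2 genes with the smallest p of each list, fixed partner genes (some not reported here), and the 3 genes with profiles most like each of the 3 most variable genes. *Pik3r1*, *Pik3ca* and *Insr* had fractional estimates in 3, 3 and 1 libraries.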

Additional observations from a re-analysis of the deposited data

How the results depend on the processing

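No paired analysis was made because the labels do not pair Baf155 WT mice with Baf155 ΔMF mice. The number of genes past an adjusted p of 0.05 was 3 over all mice, 17 without a filter on low counts, 23 with DESeq2, 5 with limma-voom, 16 with the title prefix as covariate and 7 with the length trend removed. Leaving out 1 mouse gave 0 to 955 genes and 0 to 1 of the 10 genes described, and leaving out both MS15 mice, an alternative chosen after seeing the data that leaves 1 Baf155 WT mouse, assumed to vary like the Baf155 ΔMF mice, gave 16 genes. At an unadjusted p under 0.05, 1 of the 10 was found with library size only (*Irs1*, beside 973 of all 12116 genes tested) and with DESeq2 (*Insr*, beside 605 of 12116). The same held without a filter (*Insr*, beside 1279 of 16274), with the prefix (*Irs2*, beside 616 of 12116) and with the length trend removed (*Irs1*, beside 951 of 12069). Leaving out 1 mouse gave 0 to 3 of the 10 at that limit. The 3 (*Insr*, *Irs1* and *Mtor*) came without the MS13 Baf155 WT mouse, where 2923 of 12288 genes were at that limit. When any other mouse was left out, 450 to 1259 of 12211 to 12350 genes were. The count without overlap was 0 with upper-quartile scaling and with library size only. Library size only moved the median log2 difference of all genes to -0.064.

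Differences with a changed sign were all of genes not past the threshold, and the cause was not tested. Without both MS15 mice, the log2 difference was -0.0049 for *Insr*, 0.031 for *Pik3r1*, -0.047 for *Akt1*, -0.078 for *Tbc1d4* and -0.064 for *Mtor*. With the prefix it was -0.057 for *Akt1* and -0.026 for *Mtor*, and among the MS13 mice -0.058 and -0.026.
When 1 mouse was left out, the difference ran from -0.29 to 0.084 for *Irs2* and from -0.029 to 0.20 for *Tbc1d4*, and the difference in log2 ratio from -0.091 to 0.32 for *Irs2* over *Irs1*, from -0.065 to 0.047 for *Akt2* over *Akt1*, from -0.18 to 0.14 for *Tbc1d4* over *Tbc1d1* and from -0.34 to -0.093 for *Pik3r1* over *Pik3ca*. *Irs1* and *Pik3r1* stayed below 0, and *Insr*, *Pik3ca*, *Akt1*, *Akt2*, *Tbc1d1* and *Mtor* above 0, when any 1 mouse was left out. With the length trend removed, *Insr* was at 0.22, and with the prefix as covariate at 0.088.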

Other observations

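For the 3 of the 10 genes with the widest range over the 6 mice, the genes with the most similar profiles were found by the root mean square difference of mean-centered log2 CPM over the 6 mice. Nearest to *Insr* were *Zcchc11* (0.042), *Zbed6* (0.044) and *Samd8* (0.044). *Irs2* was nearest to *Gper1* (0.081), *Ankdd1b* (0.081) and *Sh2d4a* (0.087), all of which were at 5.15 CPM or less in every mouse. *Tbc1d4* was nearest to *Alpk2* (0.031), *Hlcs* (0.049) and *Rasgrp2* (0.050). All profiles come from the same 6 libraries, so they share each library's depth and title prefix.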
